A study of Mus musculus with 4 samples.

Results

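Cadherins, contactins and related synaptic adhesion molecules were followed through whole-genome bisulfite sequencing of the CA1 field of the mouse hippocampus. Members were taken by gene name: every gene name in the deposited table that starts with Cdh, Cntn, Cntnap, Lrrtm, Slitrk, Lrfn, Ncam or Cadm followed by a digit, and Nrcam. This gave 52 genes of 25181 gene names, with 4491 of the 849014 regions that had a value in all 4 libraries. A region is 1 row of the table, a stretch of the genome with a percent methylation for each library. It counts here as carrying a gene's name only where it is marked as overlapping that gene. Every one of the 52 genes was measured in all libraries. Members were picked by name and not by a measured value, but the set of names was chosen with earlier results of these data known.

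The mice were of the C57B6/J strain and 117 days old, in 2 groups of 2 libraries. The first group is labelled Tet2+f_Camk2aCre, and Camk2aCre is read here as Cre recombinase driven by the promoter of Camk2a, which is active in excitatory neurons of the forebrain. The control group is labelled Tet2+f, and its libraries are called here those without Cre. Both groups carry Tet2+f, read here as a floxed Tet2 allele beside an intact one. The series text describes the tissue as Tet2 haploinsufficient in glutamatergic cells, and the comparison addresses whether DNA methylation differs there. No group carries Cre without Tet2+f, so an effect of the Cre transgene cannot be told apart from one of Tet2 dose. Nothing in the labels tells whether libraries of 1 group are separate mice, so the p-values cover only how far these libraries vary, and that variation may be technical. Bisulfite sequencing reads 5-methylcytosine and its TET product 5-hydroxymethylcytosine alike. A level in dissected tissue averages over neurons, glia and vessels.

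Cadherins are calcium-dependent adhesion proteins. Those of types I and II mostly bind like molecules on the facing cell and are tied to actin through catenins. Contactins are immunoglobulin-type proteins held in the membrane by a lipid anchor. Some of them pair with contactin-associated proteins (Cntnap) at or beside the paranodes of myelinated axons. Slitrk, Lrfn, Lrrtm, Ncam, Nrcam and Cadm proteins bridge the synaptic cleft or the axon and its neighbours, and many of these genes are among the longest in the genome. Promoters rich in CG dinucleotides are usually free of methylation in mammals, while gene bodies are usually methylated.

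None of the 52 adhesion genes passed the test for a difference between the groups, at the level of the gene, the promoter or the single region. Their methylation differed far more from gene to gene, between 12.3% in Slitrk1 and 86.3% in Cdh17, than between libraries of 1 gene. The mean over the 52 genes was 71.2% and 71.4% without Cre and 71.3% and 71.2% with Cre. Over all regions of the table the means were 75.7% and 76.1% without Cre and 76% and 75.8% with Cre. Tet2 itself, the targeted gene, stood at 79.3% and 78.7% without Cre and at 79.7% and 78.3% with Cre. These levels do not show whether a part of Tet2 was deleted, since the table gives no coverage, so they do not check the labels. The median promoter level of marker genes was 23.8% for CA1 pyramidal neurons, 29.1% for dentate gyrus and CA3, 37.0% for interneurons, 40.5% for endothelial cells, 64.0% for astrocytes, 69.4% for oligodendrocytes and 78.5% for microglia (2 of 3 microglial markers measured). Each median rests on 2 to 5 genes, and most ranges overlapped. Interneuron markers ran from 13.9% to 86.4%, endothelial ones from 20.8% to 85.8% and astrocyte ones from 32.9% to 82.7%. Markers of CA1 pyramidal neurons reached 48.2% and those of dentate gyrus and CA3 62.4%, both below the microglial markers. The order of the medians is thus not a ranking of cell types.

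The gene level used below is the mean of all regions that carry the gene's name, each counted once. The classical type I cadherins were Cdh1 to Cdh4. Cdh2, the N-cadherin of synaptic junctions, was lowest of them, at 67.2% and 69.1% without Cre and 69.1% and 68.8% with Cre. Cdh4, the R-cadherin, was highest, at 77.6% in both libraries without Cre and 77.8% and 77.4% with Cre. Cdh3, the P-cadherin and the shortest of them with a span of 47690 bp, was at 76.7% and 76.1% without Cre and 77.2% and 76% with Cre. The libraries of the groups overlapped in each of these genes.

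The 13 type II cadherins spread from 61.8% to 84.1%, with a median of 78.6%. Cdh22 was lowest, at 62.1% and 62.2% without Cre and 60.8% and 62.1% with Cre. Cdh18 was highest and longest (926950 bp, chromosome 15), at 84.3% in both libraries without Cre and 84.1% and 83.8% with Cre. Cdh24 was the shortest at 9496 bp and is described with the group differences below. Cdh5, the VE-cadherin of endothelial junctions, averaged 83.5% over the 4 libraries, and Cdh9, a cadherin of mossy fibre synapses in the hippocampus, averaged 80.3%.

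The other 5 cadherins had a median of 82.7%, and the 2 most methylated members were among them. Cdh16, first known from kidney, stood at 85.2% and 86.7% without Cre and 87.6% and 85.7% with Cre. Cdh17, first known from liver and intestine, stood at 86.3% and 85.7% without Cre and 86.3% and 86.9% with Cre. Cdh13, the T-cadherin that lacks a transmembrane domain, spans 1042419 bp on chromosome 8 and averaged 82.7%. Cdh23, which forms the tip links of hair cells in the inner ear, was lowest of these at 78.1%.

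Contactins had a median of 82.6%, with Cntn4 at 82.3% and Cntn6 at 84.2%, while Cntn1 (78.4%) and Cntn2 lay below. Cntn2, also called TAG-1, an axonal contactin of 34590 bp, was lowest, at 64.1% and 65.0% without Cre and 64.5% and 64.8% with Cre. Cntn3 was highest, at 84.8% and 84.1% without Cre and 84.6% and 84.0% with Cre. Cntn5 was the longest contactin at 1245204 bp, with 82.8% and 83.1% without Cre and 82.8% and 82.7% with Cre.

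The contactin-associated proteins held both a low and a high end. Cntnap1, the paranodal partner of contactin 1, spans 20869 bp on chromosome 11 (101171438 to 101192306) and was at 43.9% and 44.3% without Cre and 42.6% and 43.3% with Cre. Cntnap2, which gathers potassium channels beside the paranode, is the longest member at 2245339 bp (chromosome 6, 45059720 to 47305058). It was at 82.4% and 82.6% without Cre and at 82.4% in both with Cre. The other 5 Cntnap genes lay between 80.2% and 83.1%.

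Among the synaptic organizers, the Slitrk genes were the least methylated role, with a median of 31.4%. Slitrk1, of 8697 bp on chromosome 14, was the lowest member of all with each region counted once. It was at 13.2% and 11.6% without Cre and 11.8% and 12.6% with Cre. Slitrk5, its neighbour in rank, was at 16.8% and 16.9% without Cre and 16.8% and 17.1% with Cre. Slitrk4, the longest of them at 22670 bp on chromosome X, was at 33.2% and 33.8% without Cre and 32.0% and 33.1% with Cre. Slitrk6 stood apart from the other 5, at 75.5% and 73.7% without Cre and 73.2% and 74.6% with Cre, over 3 regions. The gap between Slitrk5 and the next gene, Slitrk2 at 29.9%, was larger than the gap between any libraries of either gene. Slitrk4 and Slitrk3 (33.0% and 35.0%) overlapped in their libraries. With each region weighted by its length, the averages were 31.1% for Slitrk1, 28.7% for Slitrk5, 43.3% for Slitrk2 and 43.0% for Slitrk3. Slitrk4 then came to 67.5% and Slitrk6 to 70.2%, so the ranks and gaps depend on how regions are counted.

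The Cadm genes, which encode SynCAM immunoglobulin proteins, ranged from Cadm3 to Cadm2. Cadm3 was at 54.7% and 54.2% without Cre and at 54.9% and 55.0% with Cre. Cadm2, of 966633 bp, was at 77.2% and 77.8% without Cre and at 77.9% and 77.5% with Cre. Ncam1, the neural cell adhesion molecule that carries polysialic acid, averaged 69.0%, Nrcam, an L1-type protein of the node of Ranvier, 70.4%, and Ncam2 80.6%. The 3 Lrfn genes lay close together, between 73.2% for Lrfn2 and 74.7% for Lrfn5, and Lrrtm4, a neurexin partner, stood at 83.7%.

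**Figure D1:**
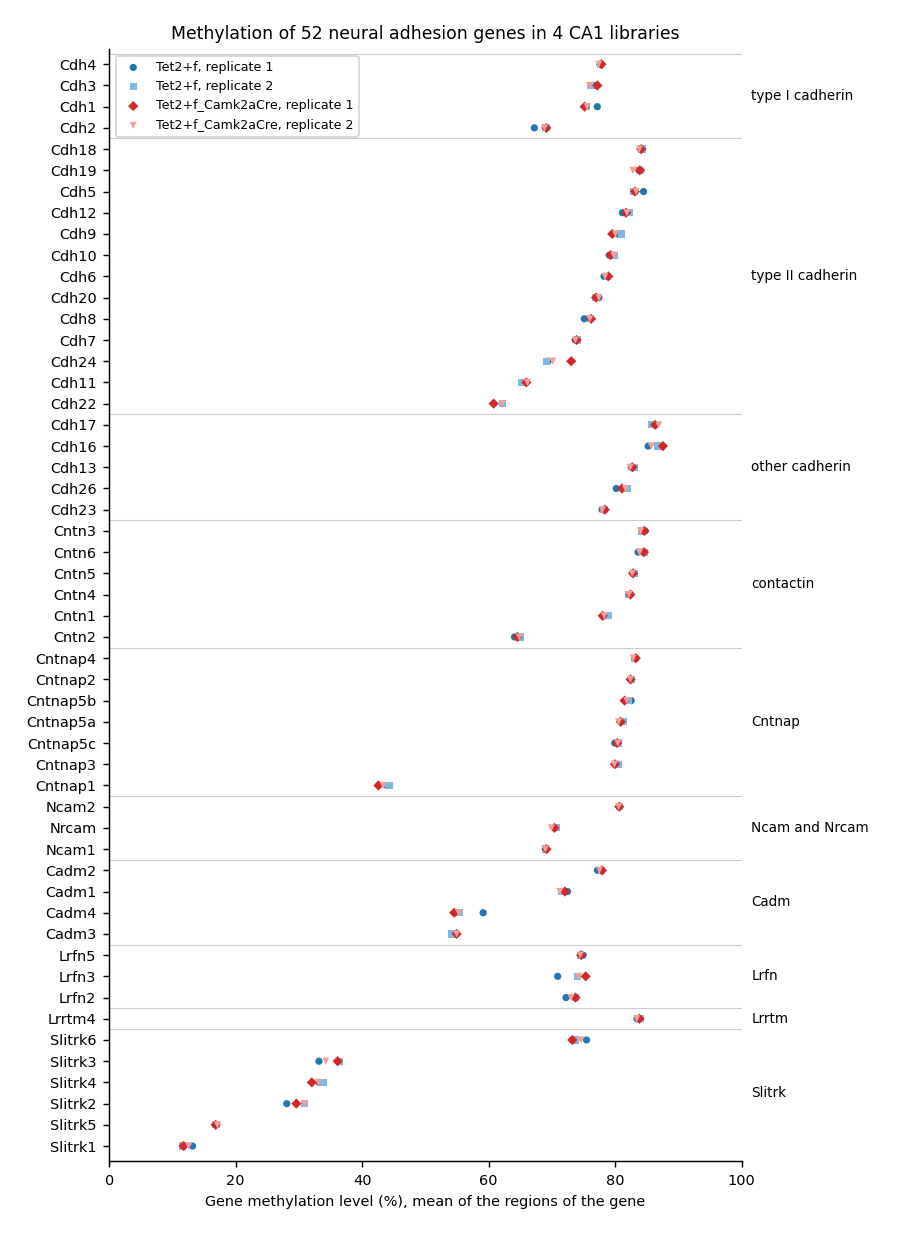
Gene methylation level in percent (horizontal axis) for each of the 52 adhesion genes, grouped by role and ordered by level, with 1 symbol for each of the 4 libraries. The symbols of a gene mostly lie on top of each other, while the genes run from Slitrk1 near 12.3% to Cdh17 at 86.3%.

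Most promoters of the adhesion genes were lower than the gene as a whole, but not those of Slitrk1, Slitrk5 and Cdh16. The promoter level is the mean of all regions that touch the window from 2000 bp upstream to 500 bp downstream of the outermost RefSeq gene start (GRCm38.p6, the assembly of mm10), and its median over the 52 members was 28.1%. Lrfn5, a postsynaptic leucine-rich repeat protein, had the lowest promoter, at 3.05% and 3.33% without Cre and 3.85% and 3.25% with Cre. The Cdh2 promoter followed, at 6.97% and 7.92% without Cre and 6.88% and 7.52% with Cre. The Cntnap1 promoter was at 11.5% and 9.64% without Cre and at 9.71% and 11.1% with Cre. The highest promoters were those of the kidney and intestine cadherins. Cdh16 was at 86.5% and 87.1% without Cre and 88.2% and 85.2% with Cre, and Cdh17 at 87.8% and 85.4% without Cre and 84.5% and 85.4% with Cre.

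By the outermost RefSeq start, promoters differed by role as the genes did, but in another order. The median promoter level was 14.6% for the type I cadherins, 18.8% for Ncam and Nrcam, 20.1% for the Cadm genes, 21.6% for the Lrfn genes and 21.9% for the Slitrk genes. It was 29.2% for contactins, 38.2% for the Cntnap genes, 48% for the type II cadherins and 80.2% for the other cadherins, and the Lrrtm4 promoter was at 55.9%. The Slitrk genes, lowest by gene level, thus had promoters close to those of the Cadm and Lrfn genes. Among the Slitrk genes, promoters lay between 16.1% in Slitrk1 and 23.0% in Slitrk2, except for Slitrk6 at 51.3%. That range is also tied to the start used, since Slitrk2 read 58.1% from the outermost region end. The medians of the type II and of the other cadherins are the values of Cdh12 and Cdh13. Their outermost starts lie 662376 and 143221 bp from the 5′ end of their regions. From the outermost region end, Cdh12 read 44.2% and Cdh13 59.9% on average, and the order of the roles is tied to the start used. The mean over the 52 promoters was 36.4% in both libraries without Cre and 36.6% in both with Cre.

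The position of the start mattered for some genes, long and short. For Cdh12, Cdh13, Cntn3 and Cdh9 the outermost RefSeq start lay more than 10000 bp from the 5′ end of the regions that carry the gene's name. In Cdh13 that distance was 143221 bp, and the window there read 82% and 78.2% without Cre and 81.4% and 79.3% with Cre. The first 3 regions named Cdh13 (chromosome 8, 118283238 to 118284504) averaged 2.80%, 0.231% and 0%. Cdh6 read 77.9% from the outermost start and 33.2% from the outermost region end. The same change of start took Cntn1 from 38.2% to 66.6%. Among short genes it took Slitrk2 (19932 bp) from 23.0% to 58.1% and Cdh24 (9496 bp) from 51.8% to 26.6%.

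The RefSeq promoter table lists 43 starts for 34 of the 52 members, and the bases upstream of them are shown for the lowest and highest members that it holds. All coordinates are GRCm38.p6 and the sequences are credited to RefSeq. Each is written 5′ to 3′ on the strand of the gene, with every CG dinucleotide, the site that is methylated, in capitals. Lrfn5 (chr12:61522917-61523166, plus strand) and Cadm4, a SynCAM protein of axon-glia contact (chr7:24481773-24482022, plus strand), had the lowest promoter levels among the members in that table. Cdh26 (chr2:178430265-178430514, plus strand) and Cdh6 (chr15:13173676-13173925, minus strand) had the highest, by the window from the outermost start.
Lrfn5: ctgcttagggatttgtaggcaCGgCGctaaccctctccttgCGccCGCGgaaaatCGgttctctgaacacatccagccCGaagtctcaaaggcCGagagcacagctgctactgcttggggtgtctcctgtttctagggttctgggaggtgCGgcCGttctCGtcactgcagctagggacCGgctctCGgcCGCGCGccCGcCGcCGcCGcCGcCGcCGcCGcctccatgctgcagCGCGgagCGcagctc
Cadm4: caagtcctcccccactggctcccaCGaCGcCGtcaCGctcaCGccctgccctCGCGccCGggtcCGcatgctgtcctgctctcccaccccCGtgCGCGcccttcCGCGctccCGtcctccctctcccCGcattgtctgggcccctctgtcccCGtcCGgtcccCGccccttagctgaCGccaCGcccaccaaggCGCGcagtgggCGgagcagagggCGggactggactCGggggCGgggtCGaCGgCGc
Cdh26: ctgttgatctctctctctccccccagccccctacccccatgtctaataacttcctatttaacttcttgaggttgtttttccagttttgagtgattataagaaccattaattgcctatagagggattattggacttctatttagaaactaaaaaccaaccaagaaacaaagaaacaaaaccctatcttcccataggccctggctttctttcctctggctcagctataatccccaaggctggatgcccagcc
Cdh6: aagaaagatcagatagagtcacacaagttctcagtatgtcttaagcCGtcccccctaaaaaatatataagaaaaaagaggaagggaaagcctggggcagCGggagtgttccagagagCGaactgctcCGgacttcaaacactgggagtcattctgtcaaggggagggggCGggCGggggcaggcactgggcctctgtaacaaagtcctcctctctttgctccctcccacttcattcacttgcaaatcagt

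Upstream of Lrfn5 and Cadm4 the 250 bases hold 27 and 30 CG. The 2 regions over the Lrfn5 sequence read 0% to 1.02% without Cre and 0.686% to 1.52% with Cre. The 2 regions over the Cadm4 sequence were at 0% in both libraries without Cre and at 0% to 3.23% with Cre. The Cdh26 sequence holds no CG, so no site inside it was measured, and the region of 2203 bp that covers it read 76.2% and 81.3% without Cre and 74.7% and 78.7% with Cre. The Cdh6 sequence holds 6 CG, and its region of 603 bp read 0% and 0.333% in each group. Cdh6 was thus among the highest promoters by the outermost start and among the lowest at its listed start, 2732 bp downstream of the outermost one.

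Over the 43 listed starts, promoters with more CG were less methylated, with a Spearman rho of -0.637 between the CG count in the 250 bases and the level of the regions over the promoter. This is a correlation across promoters, some of the same gene and all of the same libraries, and it is a description. The 24 promoters below 20%, a limit set here, held a median of 16 CG, and the 6 at 50% or more held 3. The motif searched was CG, which reads the same on both strands. At least 1 CG was present in 95.3% of the members' promoters and in 92.1% of all 32851 listed promoters of this length, and the medians were 10 and 6.

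**Figure D2:**
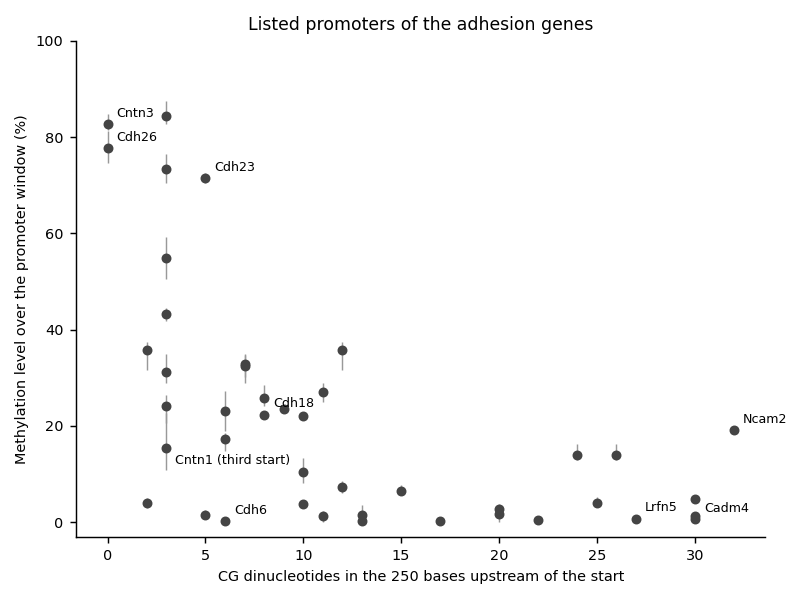
Each point is a listed promoter of an adhesion gene: the number of CG dinucleotides in the 250 bases upstream of the start (horizontal axis) against the mean methylation level in percent of the regions over the promoter window (vertical axis), with a line from the lowest to the highest of the 4 libraries. Promoters with 13 CG or more lie below 20%, while the 6 at 50% or more include Cdh26 and Cntn3, which hold 0 CG.

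Within the genes, low methylation was mostly a matter of the start. Of the 4491 member regions 148 (3.30%) lay below 20%, against 10.5% of all regions with a gene name. At 80% or more lay 65.2%, against 58.5%. These shares were not matched for gene span, and a long gene holds more regions away from its start. These low regions were short, with a median of 415 bp against 3556 bp for all member regions. Of the 148, 129 lay within 5000 bp of a gene start and 19 farther away, in 8 members. No region below 20% carried the name of 15 members, among them Cdh5, Cdh16, Cdh17, Cntn3, Cntn6, Lrrtm4 and Slitrk6. Regions without the gene's name were not searched, and some lie in the promoter windows. The lowest region in the window averaged 0% for Cntn3, 3.96% for Cdh10 and 7.27% for Cntnap5b. It averaged 10.6% for Cdh12 and 17.2% for Cdh9, and these 5 are all among the 15.

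The members with low regions away from a start were Cdh4, Cdh6, Cdh18, Cdh22, Cdh23, Cntn1, Cntnap2 and Slitrk5. Cdh23 held a stretch of 6 regions (chr10:60686052-60687733) 8780 to 10042 bp downstream of its start, with means from 0.656% to 2.47%. Its promoter was at 68.9% and 66.8% without Cre and at 66.1% and 63.2% with Cre. The last 3 of these regions also lie on the predicted gene Gm51803. Cdh22 held 5 such regions, and the region of 220 bp near its 3′ end (chr2:165112325-165112544) read 0.50% and 0.40% without Cre and 0.741% and 3.40% with Cre. Cntnap2 held 1, of 295 bp (chr6:47044625-47044919), 1984564 bp downstream of its start, at 5.57% and 5.73% without Cre and 10.9% and 6.0% with Cre.

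In Cdh18 and Cntn1 the low region inside the gene lay at a start that RefSeq lists for the same gene. Their upstream sequences are shown for that reason, and were chosen after the levels were seen. The Cdh18 start (chr15:23036213-23036462, plus strand) lies 487565 bp inside the gene, and the innermost start listed for Cntn1 (chr15:92161107-92161356, plus strand), lies 110205 bp inside.
Cdh18: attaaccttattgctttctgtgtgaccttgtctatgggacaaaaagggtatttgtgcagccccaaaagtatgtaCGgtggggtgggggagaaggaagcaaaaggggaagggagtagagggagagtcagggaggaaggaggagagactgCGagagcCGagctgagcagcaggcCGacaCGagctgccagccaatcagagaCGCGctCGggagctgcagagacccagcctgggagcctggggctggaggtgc
Cntn1: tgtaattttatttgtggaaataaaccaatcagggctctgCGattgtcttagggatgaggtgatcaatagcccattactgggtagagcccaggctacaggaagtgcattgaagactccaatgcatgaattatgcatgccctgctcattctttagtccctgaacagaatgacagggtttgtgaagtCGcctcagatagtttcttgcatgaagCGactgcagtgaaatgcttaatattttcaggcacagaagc

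The Cdh18 sequence holds 8 CG and its region of 985 bp read 5.96% and 6.77% without Cre and 5.76% and 10.4% with Cre. The listed promoter window of that start touches 2 regions, which averaged 21.4% and 22.7% without Cre and 22.2% and 23.0% with Cre. The regions at the outermost Cdh18 start were at 71.8% and 74.6% without Cre and 70.1% and 74.1% with Cre. The inner start was thus the lower of the pair in all 4 libraries, by its single region and by its window. The Cntn1 sequence holds 3 CG and its region of 1087 bp read 14.4% and 13.8% without Cre and 10.8% and 22.7% with Cre. The regions over the other starts listed for Cntn1 read 32.8% and 84.4% on average over the libraries. The inner start was still not the lowest part of Cntn1. A region 121 bp from the outermost start (chr15:92051273-92051702) averaged 0.125%. Exons and introns were not analysed here.

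**Figure D3:**
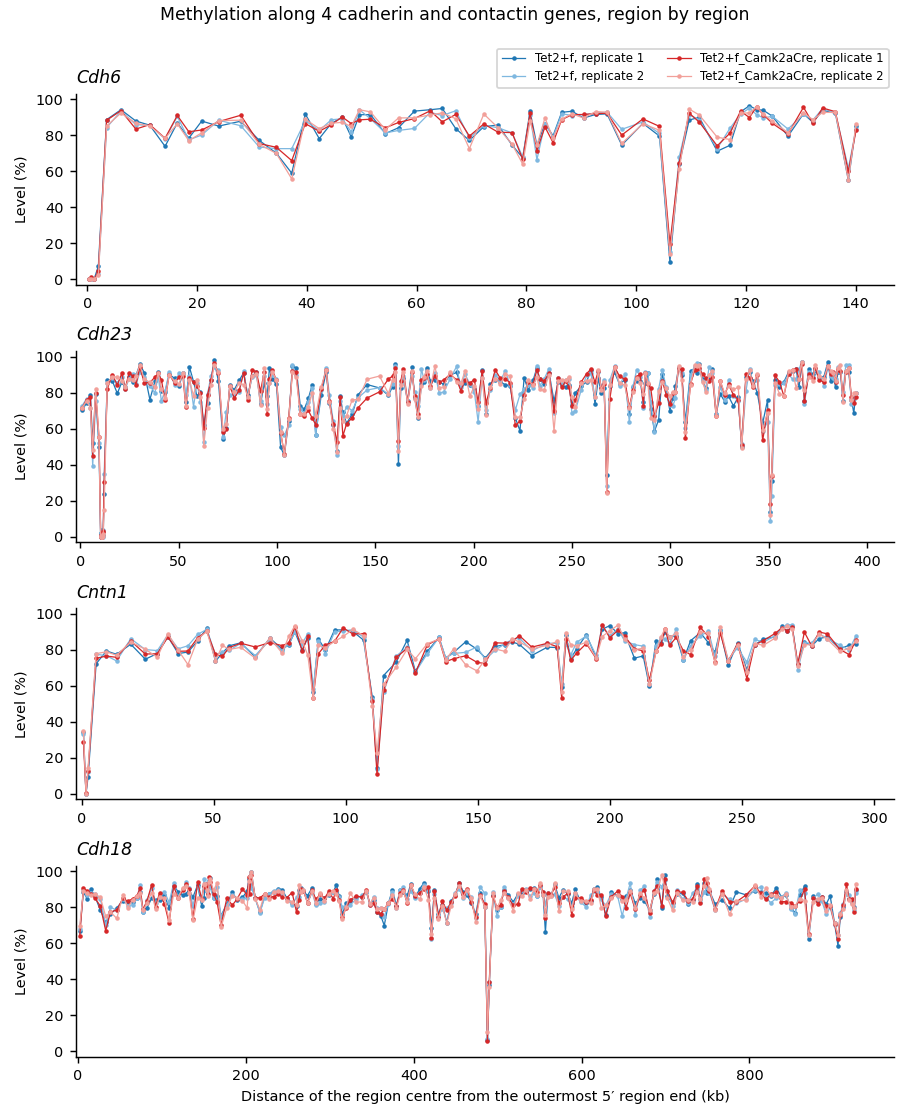
Methylation level in percent (vertical axes) of each region of Cdh6, Cdh23, Cntn1 and Cdh18 against the distance in kb of its centre from the outermost 5′ region end (horizontal axes), with 1 line for each of the 4 libraries. All libraries dip together, at the start of Cdh6, about 10 kb into Cdh23 (0.656% to 2.47%), at the start and innermost listed start of Cntn1 and at the inner start of Cdh18 (7.22% on average).

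The rule for these genes asks how the level of a gene relates to its span, the distance between its outermost region ends. Across the 52 members the longer genes were the more methylated, with a Spearman rho of 0.557, against 0.120 across the 25128 gene names on 1 chromosome. Genes of the same libraries are not independent replicates, and the value is a description. It was between 0.552 and 0.573 in each library taken alone. Without the 6 Slitrk genes it was 0.413 over 46 members. Over regions outside the promoter window it was 0.357, against 0.130 across 22828 gene names. The sets differ in span, since 9198 of the 25128 gene names but only 6 of the 52 members span at most 10000 bp. For genes of at least 100000 bp the correlation was 0.625 over 32 members, against 0.244 across 2486 gene names.

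By span class, the medians of the short members were low, but not every short member was. The 6 members of at most 10000 bp had a median of 52.7% against 73.3% for all genes of that span, and Slitrk1, Slitrk5 and Slitrk3 lay below the lower quartile of 42.8%. The others, Slitrk6, Lrfn3 and Cdh24, were at 74.2%, 73.6% and 70.4%. The 5 members of 10000 to 30000 bp had a median of 43.5% against 70.2%. They were Cdh16, Cntnap1, Cadm4, Slitrk2 and Slitrk4, and all but Cdh16 lay below the lower quartile of 59.1%. Members of 30000 to 100000 bp were above the general median, at 80.3% against 74.0%, and the 12 of 100000 to 300000 bp were below it, at 73.5% against 77.7%. The 16 members of 300000 to 1000000 bp were at 80.8% against 80.4%, and the 4 longest (Cdh13, Cntn4, Cntn5 and Cntnap2) at 82.6% against 81.6%.

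The length of the regions moved with both measures. Among short regions that lie wholly within a listed promoter sequence, 87.5% held 25 or 26 CG, so a region is short where CG is dense. The median region length of a gene correlated with its level at 0.625 over the members and at 0.529 over all genes, and with its span at 0.691 and 0.228. What part the CG density has in the relation of span and level was not tested. With each region weighted by its length the correlation of span and level was 0.541.

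**Figure D4:**
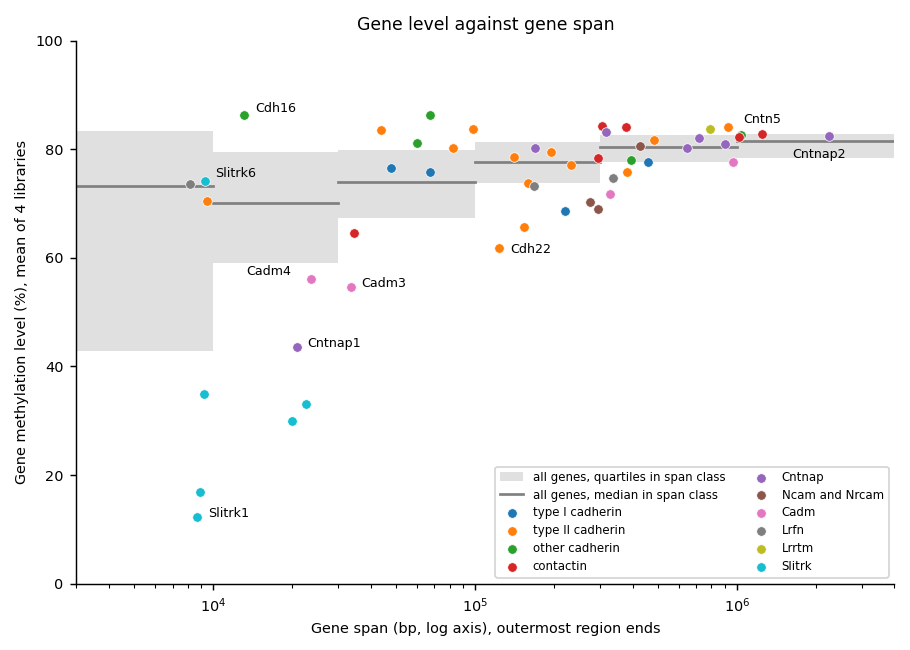
Gene methylation level in percent, mean of 4 libraries (vertical axis), against gene span in bp on a log axis, with the 52 members colored by role. Grey bands and lines are the quartiles and the median of all genes of the same span class. Members of 10000 to 30000 bp mostly lie below the band, and the 4 members above 1000000 bp lie between 82.3% and 82.9%.

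Along the genes, the level was higher with distance from the start up to about 50000 bp and differed little beyond. Regions with their centre within 2000 bp of the outermost 5′ region end had a median of 4.88% over the 42 members that have such regions, with 5.44% and 4.70% without Cre and 4.76% and 5.08% with Cre. Members whose first region is long have none and are left out, so this class favours starts dense in CG. Cdh18 is one of them, with a first region of 4353 bp at 64.1% to 69.4% in the 4 libraries. From 2000 to 10000 bp the median was 67.0%, from 10000 to 50000 bp 80.9%, from 50000 to 200000 bp 82.2%, and beyond 500000 bp, reached by 10 members, 82.7%. Set beside all genes of at least 100000 bp, the 32 members of that span were at 63.7% against 76.3% from 2000 to 10000 bp and at 80.8% against 82.2% from 10000 to 50000 bp. Beyond that the values were close, at 82% and 82.7% from 50000 to 200000 bp and 82.7% and 82.8% beyond 500000 bp.

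Between the groups, 26 of the 52 genes were higher in the Cre libraries and 26 lower, where 51.1% of all gene names were higher. No member passed an adjusted p of 0.05 in limma with Benjamini-Hochberg adjustment over all gene names, and none of the 25181 did (0.0%). None of the 52 had an unadjusted p under 0.05, against 5.3% of all gene names. In 5 members both libraries with Cre exceeded both without, against 17.1% of all gene names, and in 14 both were below (26.9% of members), against 16.0%. The groups did not overlap in 19 members in all, 36.5%, against 33.1%. The median difference was -0.0285 percentage points over the members and 0.0253 over all gene names. The median half-width of the 95% interval of a member was 1.80 points.

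The largest positive differences were in short genes. Cdh24, a type II cadherin (chromosome 14, 54631921 to 54641416), was at 69.4% and 69.2% without Cre and at 73.0% and 70.1% with Cre. Both Cre libraries were above the controls, by 2.32 points on average, with a 95% interval from -1.10 to 5.74 and a limma adjusted p of 0.979. Leaving out Cre replicate 1 gave 0.860 points and leaving out Cre replicate 2 gave 3.78. Lrfn3, a synaptic leucine-rich repeat protein (chromosome 7, 30354911 to 30363063), was at 70.9% and 74.0% without Cre and 75.3% and 74.2% with Cre. Its difference was also 2.32 points (-1.42 to 6.07, limma adjusted p = 0.987), and it came to 0.784 points when control replicate 1 was left out and to 3.86 when control replicate 2 was.

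Smaller positive differences without overlap were seen in Cdh11 and Cdh17. Cdh11, first known from bone-forming cells, was at 65.5% and 65.2% without Cre and 66.0% and 66.1% with Cre. Cdh17 differed by 0.573 points, with the values given above, and by 0.285 to 0.860 points with 1 library left out, lowest without replicate 2 and highest without replicate 1 of the control group. Cdh2 differed by 0.822 points with overlapping groups, and by -0.103 points without replicate 1 of the control group.

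The lowest difference was that of Cadm4 (chromosome 7, 24481900 to 24505567), at 59.1% and 55.4% without Cre and 54.6% and 55.2% with Cre. It came to -2.39 points, with an interval from -6.57 to 1.80 (limma adjusted p = 0.997), and replicate 1 of the control group stood above the other 3 libraries. Without that library the difference was -0.548 points, and without replicate 2 of the control group -4.23. Cntnap1 differed by -1.13 points (-2.95 to 0.692) and Cdh9 by -0.916 points (-2.70 to 0.874), with limma adjusted p of 0.999 and 0.989. The Cdh9 libraries read 80.4% and 81.0% in the control group and 79.5% and 80.1% in the Cre group. In Cntnap5b (82.5% and 82.1% against 81.5% and 81.8%) and Cntnap3 (80.5% in both against 80% and 79.9%) both Cre libraries were also below the controls.

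By role, 6 of the 7 Cntnap genes and 1 of the 3 Lrfn genes were lower in the Cre libraries. For the type I cadherins the count was 1 of 4, for type II 6 of 13, for the other cadherins 1 of 5, for contactins 3 of 6, for Cadm genes 2 of 4, for Slitrk genes 3 of 6 and for Ncam and Nrcam 2 of 3. The mean over the 7 Cntnap genes was 76.2% and 76.3% without Cre and 75.8% and 75.9% with Cre, and no Cntnap gene passed the test.

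The size of the differences followed how many regions a gene has. The 15 members with at most 20 regions had a median absolute difference of 0.691 points between the groups and a median gap between replicates of 1.18 points. For the 23 members with 21 to 100 regions these were 0.195 and 0.590 points, and for the 14 with more than 100 regions 0.164 and 0.345 points. Read counts are absent from the table, so no level has a known depth or a counting interval.

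**Figure D5:**
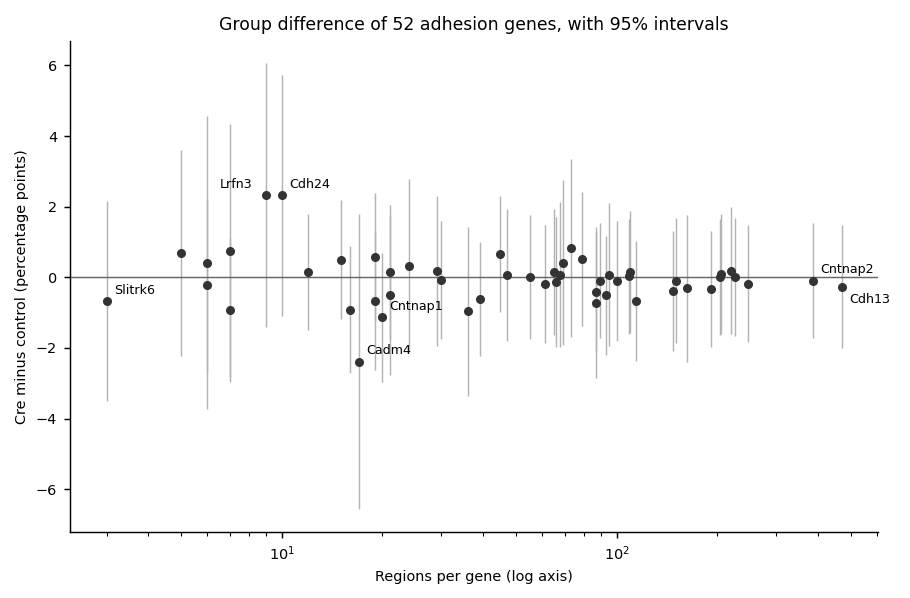
Difference of the group means in percentage points, Cre minus control (vertical axis), against the number of regions of the gene on a log axis, with 95% intervals from limma on the percent scale. Every interval spans 0, and the differences beyond 2 points (Cadm4, Lrfn3 and Cdh24) belong to genes with 9 to 17 regions.

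At promoters, 31 of the 52 members were higher in the Cre libraries (50.8% of all promoters were) and no promoter passed the adjusted threshold (0.0% of 19702). The Cre libraries lay above both controls in 7 members, against 17.0% of all promoters, and below in 5, against 16.7%. An unadjusted p under 0.05 was found for 1 member, against 5.09% of all promoters. This was Cdh10, a type II cadherin, at 16.1% and 17.7% without Cre and 13.0% and 14.7% with Cre. Both libraries with Cre lay below the others, the difference was -3.0 points (-6.13 to 0.134) and the limma adjusted p 0.961.

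The other promoters with the smallest p were those of Cdh23 and Cdh22 among the lower ones. Cdh22 was at 20.1% and 19.7% without Cre and 18.6% and 18% with Cre, and Cdh23, with the values given above, differed by -3.20 points. With a window from 1000 bp upstream, or with the single region over the start, the Cdh23 difference was -0.0714 points. Among the higher ones, Lrfn2, a postsynaptic partner of PSD-95, was at 19.4% and 21.5% without Cre and 23.9% and 21.5% with Cre. Lrfn3 was at 26.9% and 29.2% against 29.3% and 31.0%, and Cntn5 at 25.6% and 26.9% against 27.8% and 28.1%. With the single region over the start the difference was 4.53 points for Lrfn2, 0.249 for Cntn5, -1.02 for Cdh10 and -0.595 for Cdh22. With 1 library left out it ran from 1.09 to 3.49 points for Lrfn2 (lowest without replicate 1 and highest without replicate 2 of the Cre group), from 1.03 to 2.36 for Cntn5 and from 0.969 to 3.32 for Lrfn3 (both lowest without replicate 1 and highest without replicate 2 of the control group). For Cdh23 it ran from -4.63 points without Cre replicate 1 to -1.77 without Cre replicate 2. The groups did not overlap in the promoters of Cdh22, Cdh23, Lrfn2, Lrfn3 and Cntn5, and their limma adjusted p lay between 0.961 and 0.972.

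Of the 4491 member regions, 2179 (48.5%) were higher in the Cre libraries, against 49.2% of all regions. No member region passed the adjusted threshold in limma (0.0% of all regions did), and 159 (3.54%) had an unadjusted p under 0.05, against 4.6% of all regions. The 3 higher regions with the smallest p lay near 0%. A Cdh8 region at the start of the gene (chr8:99416216-99416649) was at 0% in both libraries without Cre and at 2.0% in both with Cre. The Lrfn3 region over its start (chr7:30362741-30363063) was at 0% in both libraries without Cre and at 2.48% and 3.85% with Cre. A Cdh3 region (chr8:106511241-106511605) was at 0.741% and 0.815% without Cre and at 2.67% and 2.96% with Cre.

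Lower in the Cre libraries was a low region inside Cdh22 (chr2:165215332-165215863), at 13.4% and 15.5% without Cre and 5.0% and 3.54% with Cre. This is 1 of the 5 low Cdh22 regions away from the start, and it also lies on the predicted gene Gm36803. A Slitrk2 region (chrX:66653086-66653947) was at 3.86% and 5.18% against 1.16% and 0.802%, and a Cadm2 region (chr16:66754470-66754923) at 100% and 98.9% against 92.0% and 93.9%. All 6 regions had an adjusted p of 0.937 in limma.

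The largest difference of any member region, picked after the values were seen, was in Cadm4 (chr7:24499584-24500038). It was at 50.7% and 53.5% without Cre and at 20.5% and 35.3% with Cre, a difference of -24.2 points with an adjusted p of 0.937 in limma. This region is 1 of the 17 that make up the Cadm4 level. A region of Cntnap1 (chr11:101178946-101179809) was at 76.1% and 76.5% against 57.5% and 62.9%, and one of Cdh13 (chr8:118784052-118786463) at 84.1% and 83.7% against 71.1% and 68.7%.

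The partners and relatives of these proteins showed the same absence of calls. Of 46 listed genes, 44 were measured under their own name or an older symbol, 23 of them higher and 21 lower in the Cre libraries, and none passed the test or had an unadjusted p under 0.05 in limma (5.3% of all gene names had one). The catenins, which tie cadherins to actin, numbered 3 higher and 4 lower, and Jup (plakoglobin), Ctnnd1 (p120 catenin) and the protocadherin Pcdh8 shared the smallest adjusted p in limma, 0.973. Immunoglobulin adhesion genes numbered 7 higher and 9 lower, receptor phosphatases that bind Slitrk and Lrfn proteins 3 and 0, latrophilins, teneurins and Flrt genes 4 and 4, and unclustered protocadherins 6 and 4. Their levels ran from 6.77% for Pcdh8 to 83.5% for Pcdh15, with a median of 75.8%.

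Among the families, 6 further genes carried no regions under their own name. Lrrtm1, a neurexin partner, lies within the catenin gene Ctnna2, Lrrtm2 within Ctnna1 and Lrrtm3 within Ctnna3, and the table names their regions after the catenin. The 14 regions over Lrrtm1 were at 38.6% and 39.5% without Cre and 39.5% and 40.1% with Cre, while the other Ctnna2 regions averaged 80.9%. Lrrtm2 averaged 29.4% against 79.4% for the rest of Ctnna1, and Lrrtm3 72.7% against 84.1% for the rest of Ctnna3. The regions over Lrfn4 were named Pcx and averaged 33.9%, those over Lrfn1 were named Samd4b and averaged 57.8%, and those over Cdh15 were named Gm20388 and averaged 71.6%. These 6 are not counted among the 52.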

How the data were processed

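Whole-genome bisulfite libraries of CA1 tissue were grouped by their titles, 2 in each group. For each library the authors deposited a percent methylation per region. The submitters' processing notes name mm10 and the tools Bismark 0.19.0, Trim Galore 0.4.5, FastQC 0.11.5 and edgeR, without roles. Neither the drawing of regions nor a coverage minimum is given in the sources used here. Counts and coverage are absent from the table, so depth is unknown. Of 849172 regions, 158 lacked a value in a library and were left out.

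Gene levels were means of all regions with the deposited gene name that are marked as overlapping the gene. Promoter levels were means of regions touching the window around the RefSeq start (19702 promoters). Regions were assigned whole and can reach outside the window. Groups were compared with limma 3.58.1 (R 4.3.3) after the transform log2((share + 0.01) / (1 - share + 0.01)), where share is the percent divided by 100, fitted over all features with Benjamini-Hochberg adjustment at 0.05. This scale gives large values to small changes near 0% and 100%. Intervals in points came from limma on the percent scale. The members and gene lists were chosen with earlier results of these data known.

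Named were the members with the smallest p (5 in each direction for genes, 3 for promoters and regions), the 3 lowest and highest, and the shortest and longest of each role. Other settings were leaving out each library, a replicate block, other scales, offsets, priors, weights, region lengths and windows.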

Additional observations from a re-analysis of the deposited data

How the results depend on the processing

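No member passed an adjusted p of 0.05 in limma under any of the 12 settings tried for genes, 11 for promoters and 9 for regions. For genes, the setting with overlapping regions only repeats the main run, which already used only those, and adds no check. Over all features 1 promoter passed with a trended and robust prior, and 5 regions passed when regions under 500 bp were left out, none of them in a member. The cause was not tested. Leaving out 1 library at a time, 17 (without replicate 1 of the control group) to 28 members were higher in the Cre libraries, 0 to 2 had an unadjusted p under 0.05 at gene level and 0 to 2 at promoters, and 98 to 162 regions did. At promoters, members with an unadjusted p under 0.05 numbered 0 on the percent scale, 4 for the single region over the start and 3 from the outermost region end, a start chosen after seeing the data. The 22 named differences gave 236 values under other settings. Of these 127 equal the reported difference, mostly because the setting changes only the test, and 108 of the other 109 kept their direction. The exception was Cdh2, which ranged from -0.103 points without replicate 1 of the control group to 1.75 points without replicate 2.

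The rank correlation of level and span was 0.575 with spans from the reference table, 0.541 with regions weighted by length, 0.357 outside the promoter window, 0.542 without the 2 most distant spans, 0.573 in replicate 2 of the control group alone and 0.413 without Slitrk genes, the last chosen after seeing the data. Leaving out a library gave 0.553 to 0.560. The correlation of the replicate differences of the groups was 0.00648 over regions and 0.0490 over genes, and replicate numbers were therefore not treated as pairs. With a replicate block 0 genes, 0 promoters and 0 regions passed. The unknown coverage limits all of these levels.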
